A study of Mus musculus with 15 samples.

Results

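The genes described here are the cyclins, cyclin-dependent kinases (CDKs) and CDK inhibitors of the G1 phase of the cell cycle: the D-type cyclins Ccnd2 and Ccnd3, the E-type cyclins Ccne1 and Ccne2, the kinases Cdk4, Cdk6 and Cdk2, and the inhibitors Cdkn1a (p21), Cdkn1b (p27) and Cdkn2c (p18). They were selected by gene symbol alone and make up 10 of the 11262 genes in a table of naïve and activated CD8+ T cells and 10 of the 11211 genes in a table of cytotoxic T lymphocytes (CTL). Both tables come from RNA sequencing of mouse P14 T cells, which carry a transgenic T cell receptor (TCR) for the LCMV peptide gp33–41. The study asked how the lipid kinase PI3K p110δ shapes the transcriptome that antigen sets up in CD8+ T cells. The CTL libraries were not part of that article. Per its methods, the lane of the naïve and activated cells also held an unpublished dataset, which is not named there.

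Naïve cells were taken ex vivo from lymph nodes of female P14 mice aged 9 to 13 weeks and sorted as CD8+ cells with a naïve surface phenotype that included low CD44. Activated cells (TCR) from the same pools received the gp33–41 peptide (100 ng/ml) for 24 h together with the cytokines IL-2, at 20 ng/ml, and IL-12, at 2 ng/ml. A further group (TCR + PI3Kdi) had the same culture with 10 µM of the p110δ inhibitor IC87114, and both activated groups were sorted as live CD8+ cells. Each replicate pooled 3 mice, and there were 3 biological replicates per group. CTL were activated for 48 h, expanded for 4 days in IL-2, washed on day 6, and then held for 24 h with 20 ng/ml IL-2 or without it, with 3 replicates each. The treatment field of the CTL in IL-2 names other interleukins in replicates 2 and 3, and these libraries were grouped by their titles. The age of the CTL donor mice, a sort of the CTL and whether their replicates came from separate mice are not given in the sources used here, so p-values in CTL measure the spread between these libraries. All cells carry the P14 receptor, so each comparison holds for 1 antigen specificity.

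D-type cyclins bind CDK4 or CDK6, and cyclin E binds CDK2, to phosphorylate the retinoblastoma pocket proteins that hold E2F transcription factors inactive in G1. INK4 inhibitors such as p18 act on CDK4 and CDK6, and the Cip/Kip inhibitors p21 and p27 act chiefly on the cyclin E and CDK2 complex. Naïve T cells rest outside the cycle, and antigen with IL-2 drives them through G1 into rapid division. PI3K signalling keeps the FOXO transcription factors, which include Cdkn1b among their target genes, out of the nucleus.

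Promoter sequences (RefSeq, GRCm38.p6) were found for 8 of the 10 members, in 11 entries, since Cdkn1a, Cdkn2c and Ccnd3 have 2 each. The 250 bases before the start site were searched on both strands for an E2F motif (TTTCCCGC, TTTCGCGC, TTTGCCGC or TTTGGCGC), a forkhead motif (TGTTTAC), a STAT motif (TTCNNNGAA) and a GC box (GGGCGG). An E-box (CACGTG) was added after the sequences had been seen. No motif overlaps another of the set in the sequences shown. The promoters of Cdk4 (chr10:127063285-127063534, plus strand), Cdk2 (chr10:128705052-128705301, minus strand) and Cdkn1b (chr6:134920151-134920400, plus strand) are printed from 5′ to 3′, because Cdk4 and Cdk2 rose and Cdkn1b fell in activated cells. Capitals mark an E-box in Cdk4 and an E2F motif in Cdk2, and GC boxes were left in lower case.
Cdk4: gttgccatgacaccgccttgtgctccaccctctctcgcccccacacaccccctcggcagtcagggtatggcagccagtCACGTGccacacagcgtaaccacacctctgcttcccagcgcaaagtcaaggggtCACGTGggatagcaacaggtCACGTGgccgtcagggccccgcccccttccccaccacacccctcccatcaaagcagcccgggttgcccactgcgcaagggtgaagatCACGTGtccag
Cdk2: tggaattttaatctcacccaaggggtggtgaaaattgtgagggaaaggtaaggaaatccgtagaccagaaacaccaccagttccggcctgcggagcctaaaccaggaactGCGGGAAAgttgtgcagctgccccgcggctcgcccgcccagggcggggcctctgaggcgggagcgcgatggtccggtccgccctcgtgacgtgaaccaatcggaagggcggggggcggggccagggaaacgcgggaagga
Cdkn1b: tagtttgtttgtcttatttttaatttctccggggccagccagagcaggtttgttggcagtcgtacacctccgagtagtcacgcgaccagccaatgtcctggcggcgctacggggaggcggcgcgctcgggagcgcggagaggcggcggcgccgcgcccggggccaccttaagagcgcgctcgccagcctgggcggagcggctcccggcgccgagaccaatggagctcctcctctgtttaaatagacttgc

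The Cdk4 promoter held 4 E-boxes, which began 172, 118, 98 and 11 bases before the start site. Of all 32851 promoters in the RefSeq table, 6.02% held at least 1 E-box and 7 held at least 4. Among the other members, Cdk6 had 1 E-box, 220 bases before its start. The E2F motif was found in Cdk2 alone, as GCGGGAAA on the printed strand 140 bases before the start, and in 1.86% of all promoters. The forkhead motif was found in 1 of the 2 Ccnd3 promoters and in 3.17% of all promoters, and the STAT motif in none of the 11 and in 7.02% of all. A GC box was present in 8 of the 11 member promoters, belonging to 7 members, against 32.7% of all promoters. These are matches of letters in a window and were not tested as binding sites.

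Values are FPKM, counts scaled to library size and exon length by the authors, which allow levels of different genes to be set side by side. FPKM are shares of a library, so a change in total RNA per cell is not seen, and in bulk samples fewer cells with an mRNA cannot be told apart from less of it per cell. All 8 CD8 T cell markers were detected in every library, with summed FPKM of 4749 to 5183 in naïve cells, 1310 to 1505 in TCR cells, 1350 to 1515 with PI3Kdi, 2417 to 2762 in CTL with IL-2 and 3154 to 3330 without it. Markers of erythroid cells and the defining markers Pax5, Lyz2, Csf1r, Cd14 and Ncr1 were not listed in either table, and Cd4 was not listed in the first. The summed B cell markers ranged from 20.9 to 26.3 in naïve cells and from 3.3 to 7.12 in activated cells. In CTL, Cd79b was the B cell marker listed, at 2.74 to 6.3 with IL-2 and 10.8 to 20.6 without it. Myeloid and dendritic markers did not exceed 0.72 in any library except in CTL without IL-2, where Itgam and Itgax summed to 7.59 to 9.27. The listed CD4 T cell markers summed to 5.59 to 42.8, and Cd4 itself did not exceed 1.92 in CTL. Of the NK cell markers, Eomes, which CD8 T cells also express, made up most of a sum of 4.03 to 24.2 in 4 groups and of 77.7 to 165 in CTL with IL-2. The part of these markers in the results was not tested. Depth, estimated from how low FPKM are spaced, was 11.3 to 14.6 M reads per library in the first table and 9.72 to 12.6 M in the CTL. It stands for the library size after the authors' scaling and is not a count of reads. The estimate was least sharp in replicate 2 of CTL without IL-2. Within groups, the lowest Pearson r between libraries across genes was 0.983.

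In naïve cells, the order of the levels was Cdk4, Ccnd2, Ccnd3, Cdkn1b, Cdk2, Ccne1, Cdk6, Cdkn2c, Ccne2 and Cdkn1a. The libraries of Cdk4 and Ccnd2, of Ccnd2 and Ccnd3, and of Cdk6 and Cdkn2c overlapped, while other neighbours did not. Cdk4 and the D cyclins were thus already abundant in resting cells, at a mean of 82.2 FPKM or more, next to p27 at 49.4 ± 4.84 FPKM (SD, n = 3 here and in what follows). The E cyclins were sparser, with Ccne1 at 9.23 ± 0.687 and Ccne2 at 0.127 ± 0.0321 FPKM. After 24 h of activation the order began with Cdk4, Ccnd2, Ccnd3, Ccne1, Cdk2, Ccne2 and Cdk6, with no overlap between any of these neighbours, and the 3 inhibitors came last.

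**Figure D1:**
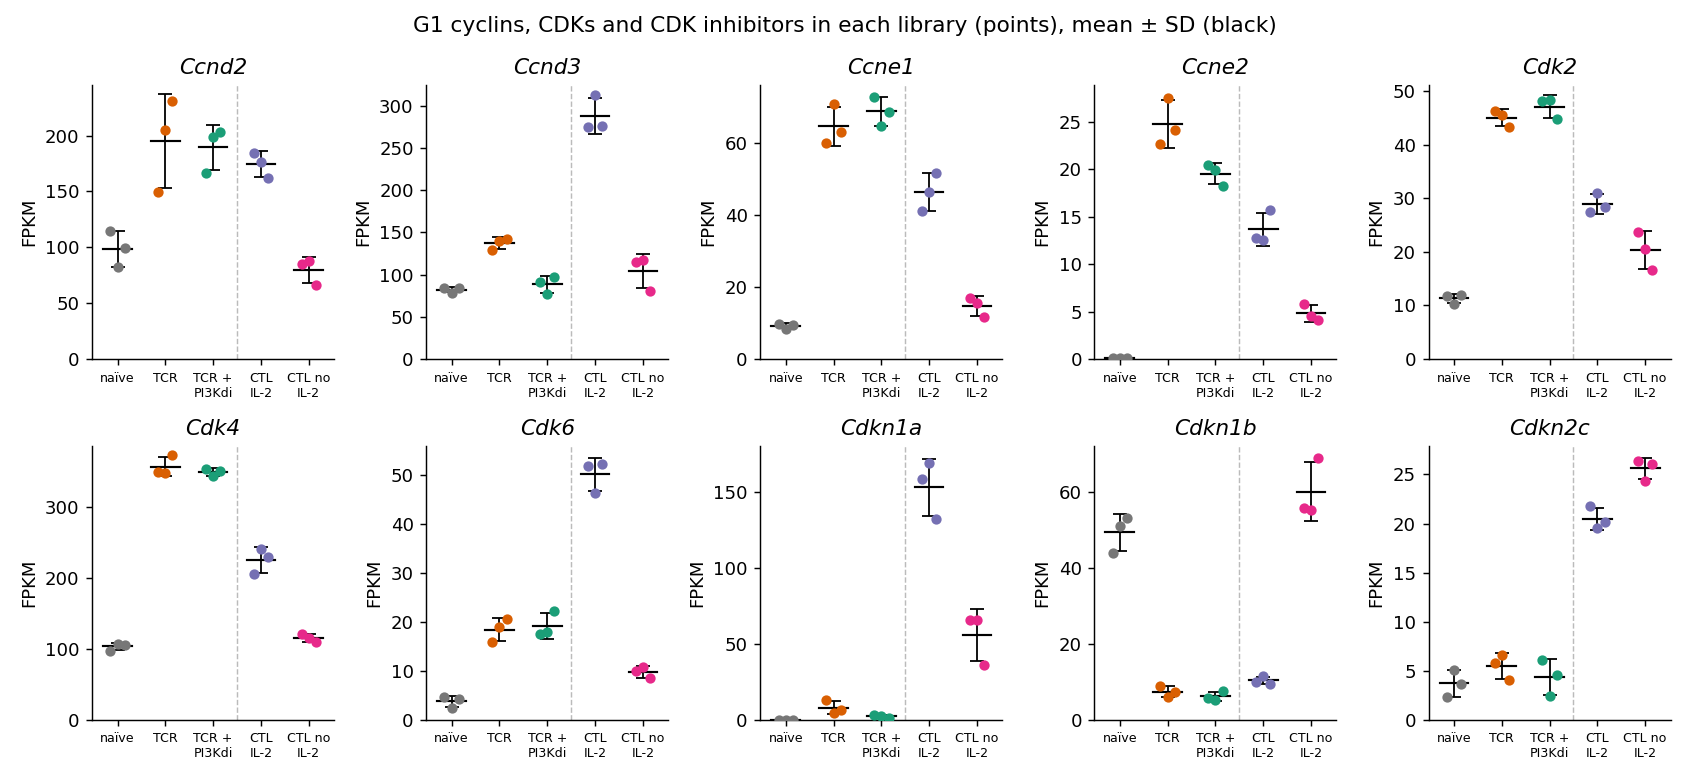
FPKM (vertical axes, from 0) of the 10 members in each of the 15 libraries (points), with the mean and SD of each group in black, for naïve cells, TCR cells, TCR cells with PI3Kdi, and CTL with and without IL-2. The dashed line separates the 2 tables, which were normalised separately. Cdkn1b stands high in naïve cells and in CTL without IL-2, where Ccne1 and Ccne2 stand low.

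The first comparison was of TCR cells with naïve cells. Activation raised both E cyclins, all 3 kinases and Cdkn1a, and lowered Cdkn1b. The D cyclins moved by less than the limit of 2-fold, and Cdkn2c did not pass the test. In limma with Benjamini-Hochberg adjustment, called at an adjusted p under 0.05 and a fold change above 2 or below 0.5, 6 of the 10 members were higher and 1 was lower. Of all 11262 genes, 25.0% were higher and 23.7% were lower by the same limits. The median log2 fold change was 1.89 over the 10 members and 0.01 over all genes, and without Cdkn1a the middle value of the other members was that of Cdk4.

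Ccne1 (Entrez 12447, GRCm38 chr7:38097984-38107534) encodes cyclin E1, the activating subunit of CDK2 at the G1/S boundary. It had 9.69, 8.44 and 9.56 FPKM in naïve replicates 1 to 3 and 60.1, 70.8 and 63.0 FPKM in TCR cells. Every TCR library was above every naïve library. The log2 fold change was 2.79 (SE 0.09, limma adjusted p = 3.5e-10). Ccne2 (Entrez 12448, chr4:11191351-11204779), the second cyclin E gene, had 0.14, 0.09 and 0.15 FPKM in naïve and 22.6, 27.5 and 24.2 FPKM in TCR cells. It went from the lowest level above 0 of any member to one between those of Cdk2 and Cdk6. Its log2 fold change of 6.78 (SE 0.14, limma adjusted p = 2.1e-11) depends on the value added before the logarithm and was 4.51 with 1 FPKM added in place of 0.1.

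The catalytic subunits rose together with the E cyclins. Cdk2 (Entrez 12566, chr10:128697939-128705031), the partner of cyclin E, had 11.8, 10.4 and 11.9 FPKM in naïve and 46.4, 45.6 and 43.3 FPKM in TCR cells, a log2 fold change of 1.99 (SE 0.08). Cdk4 (Entrez 12567, chr10:127063534-127067920), a partner of the D cyclins, had 97.6, 108 and 105 FPKM in naïve and 351, 349 and 373 FPKM in TCR cells. Its log2 fold change was 1.79 (SE 0.07). Cdk6 (Entrez 12571, chr5:3341485-3531008), the other D cyclin partner, had 4.68, 2.48 and 4.16 FPKM in naïve and 15.9, 18.9 and 20.6 FPKM in TCR cells, with a log2 fold change of 2.30 (SE 0.21). In all 3 kinases the groups did not overlap, and the largest limma adjusted p among them was 1.1e-06, for Cdk6.

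The D cyclins stood out among the positive regulators by their small differences. Ccnd2 (Entrez 12444, chr6:127125162-127152193) had 115, 82.1 and 99.3 FPKM in naïve and 149, 205 and 231 FPKM in TCR cells. The groups did not overlap, but the log2 fold change of 0.97 (SE 0.17, limma adjusted p = 0.00020) was just short of 2-fold. Ccnd2 passed the limit when the libraries were scaled to a common median, at 1.09, without naïve replicate 1, at 1.09, or without TCR replicate 1, at 1.15. Ccnd3 (Entrez 12445, chr17:47505051-47599691) had 84.5, 78.3 and 83.6 FPKM in naïve and 129, 140 and 142 FPKM in TCR cells. Its log2 fold change was 0.74 (SE 0.09, limma adjusted p = 1.7e-05), also with no overlap. Ccnd1, the third D cyclin gene, was not listed in either table.

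Among the member inhibitors, Cdkn1b (Entrez 12576, chr6:134920401-134925513) was the one that fell. It had 44.0, 51.1 and 53.2 FPKM in naïve and 8.98, 6.13 and 7.23 FPKM in TCR cells, with no overlap. The log2 fold change was -2.73 (SE 0.16, limma adjusted p = 3.3e-08). Cdkn1a (Entrez 12575, chr17:29090976-29100727) was blank in all 3 naïve libraries, which was read as 0, and had 12.8, 4.64 and 6.65 FPKM in TCR cells. It was called higher (limma adjusted p = 2.0e-08), but no fold change can be given against a level listed at 0. Cdkn2c (Entrez 12580, chr4:109660876-109667189) had 2.37, 5.07 and 3.69 FPKM in naïve and 5.83, 6.57 and 4.01 FPKM in TCR cells. These ranges overlapped, and the log2 difference of 0.58 had an interval from -0.18 to 1.34 (95%, limma adjusted p = 0.14).

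The second comparison, TCR + PI3Kdi against TCR, asked which of these levels depended on p110δ during activation. Most of the G1 machinery was at the same order of level with and without the inhibitor. Cdkn1a was lower with PI3Kdi, and Ccnd3 was lower by less than 2-fold. Of the 10 members, 0 were called higher and 1, Cdkn1a, was called lower by limma, while 3.04% of all genes were higher and 2.10% were lower. Without a fold limit, 0 members were higher and 2, Ccnd3 and Cdkn1a, were lower, against 9.35% and 8.19% of all genes. At an unadjusted p under 0.05, Ccne2 joined these as lower and no member was higher, against 16.1% of all genes higher and 15.4% lower. The TCR libraries are shared with the first comparison, and PI3Kdi against TCR and TCR against naïve are therefore not independent.

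Cdkn1a had 3.12, 2.49 and 1.46 FPKM with PI3Kdi, each below the lowest TCR library at 4.64 FPKM. The log2 fold change was -1.66 (SE 0.35, limma adjusted p = 0.0086). The TCR libraries were uneven, with replicate 1 at 12.8 FPKM, and without that library the log2 fold change was -1.27. Cdkn1a and Cdkn2c had the widest spread of all members, with a coefficient of variation of 52.8% for Cdkn1a in TCR cells and 42.4% for Cdkn2c with PI3Kdi.

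Ccnd3 had 90.7, 77.5 and 97.2 FPKM with PI3Kdi. Each of these was below every TCR library, and they spanned the naïve range of 78.3 to 84.5 FPKM. The log2 fold change against TCR was -0.64 (SE 0.09, limma adjusted p = 9.4e-04), within -0.84 to -0.43 at 95%. Against naïve cells the difference was 0.10, with an interval from -0.10 to 0.30. Ccnd2 had 166, 199 and 203 FPKM with PI3Kdi, within the TCR range, and a log2 difference of -0.03 with an interval from -0.39 to 0.34. A difference between these paralogues in their response was not itself tested. Within libraries, Ccnd2 made up 58.3 ± 4.23% (SD, n = 3) of the summed D cyclin FPKM in TCR cells and 68.1 ± 3.66% with PI3Kdi. The ranges of this share, 53.6% to 61.8% and 64.7% to 72.0%, did not overlap.

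Ccne2 had 20.4, 19.9 and 18.3 FPKM with PI3Kdi, all below the lowest TCR library at 22.6 FPKM. Its log2 difference of -0.34 (SE 0.14) did not pass after adjustment (limma adjusted p = 0.13), but with 1 FPKM added in place of 0.1 the adjusted p was 0.049, at a log2 difference of -0.32. Ccne1 had 72.9, 64.9 and 68.6 FPKM with PI3Kdi, within and above the TCR range, a log2 difference of 0.09 with an interval from -0.11 to 0.30. The Ccne1 share of the summed E cyclins was 72.3 ± 0.316% in TCR cells and 77.9 ± 1.24% with PI3Kdi, and all 3 PI3Kdi libraries were higher in it.

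The kinases gave narrow intervals. Cdk4 had 355, 344 and 352 FPKM with PI3Kdi, and its log2 difference of -0.03 had an interval from -0.19 to 0.13. Cdk2 had 48.3, 48.5 and 44.8 FPKM, with a difference of 0.06 and an interval from -0.12 to 0.25. Cdk6 had 17.5, 17.9 and 22.4 FPKM, and its interval from -0.40 to 0.52 was wider. The p27 mRNA Cdkn1b stayed far below its naïve level, at 5.81, 5.30 and 7.58 FPKM, and overlapped the TCR libraries. Its log2 difference from TCR was -0.25, with an interval from -0.61 to 0.11. Cdkn2c had 6.05, 2.39 and 4.58 FPKM with PI3Kdi, and its interval from -1.15 to 0.36 does not exclude a 2-fold difference.

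**Figure D2:**
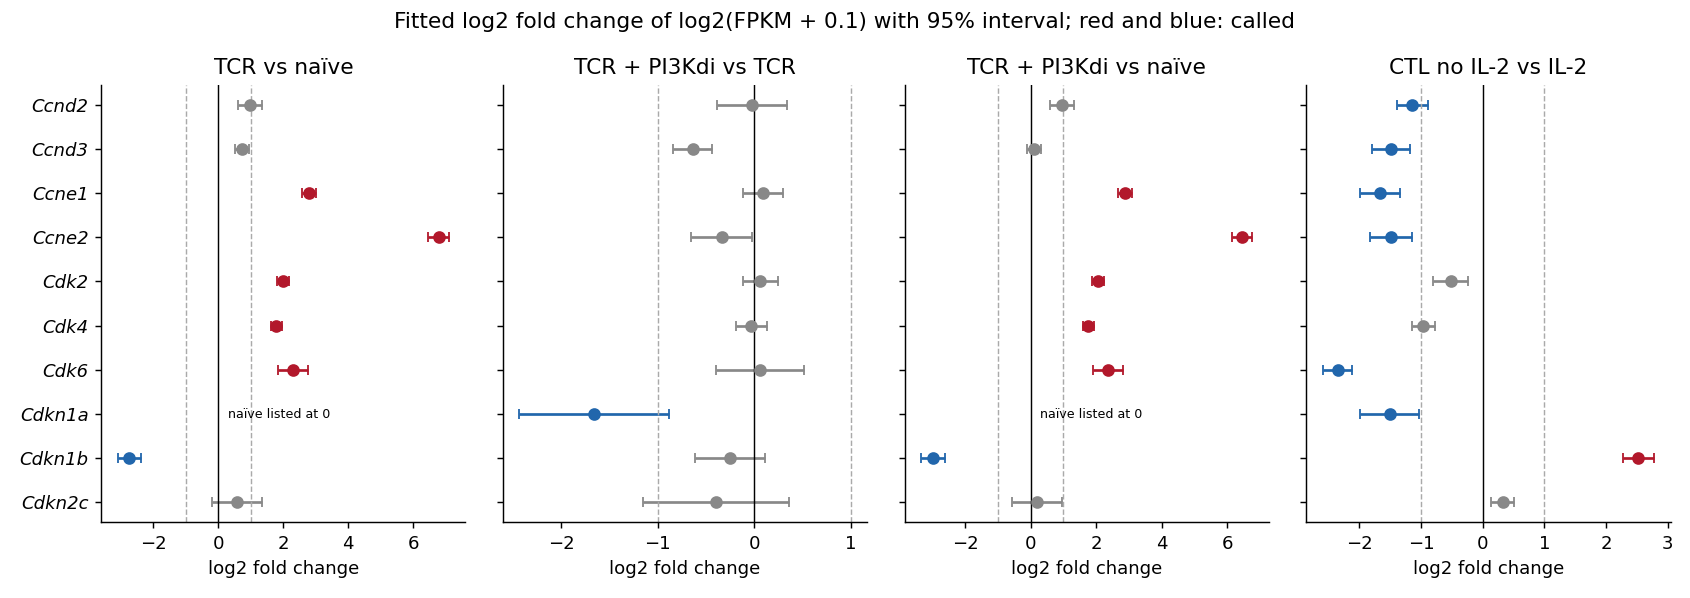
Fitted log2 fold changes of the 10 members on the log2(FPKM + 0.1) scale (horizontal axes, which differ in range between panels) with 95% intervals, for the 4 comparisons; dashed lines mark 2-fold. Red and blue points were called higher and lower, grey points were not called, and Cdkn1a has no point against naïve cells, where it is listed at 0. In the panel of PI3Kdi against TCR, Cdkn1a is the only called member.

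For the third comparison, TCR + PI3Kdi against naïve, limma called 6 members higher and 1 lower, where 23.6% of all genes were higher and 21.3% were lower. The naïve libraries here are those of the first comparison, and the PI3Kdi libraries those of the second. The median log2 fold change was 1.90 over the members and 0.00 over all genes. The called members were Ccne1 at 2.89, Ccne2 at 6.45, Cdk2 at 2.05, Cdk4 at 1.76, Cdk6 at 2.36, Cdkn1b at -2.98 and Cdkn1a, on the log2 scale. Ccnd2 again lay just under the limit at 0.95 (SE 0.17), and it passed at 1.04 after median scaling. Cdkn2c had a log2 difference of 0.19 with an interval from -0.57 to 0.95.

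The CTL table described cells that had been in IL-2 for days. In CTL with IL-2, the order of levels was Ccnd3, Cdk4, Ccnd2, Cdkn1a, Cdk6, Ccne1, Cdk2, Cdkn2c, Ccne2 and Cdkn1b. Ccnd2 and Cdkn1a overlapped, as did Cdk6 and Ccne1. Ccnd3, at 288 ± 21.5 FPKM, was thus the leading D cyclin, whereas Ccnd2 was above Ccnd3 in every naïve and activated library. Cdkn1a, blank in naïve cells, stood at 153 ± 18.8 FPKM. It made up 83.1 ± 1.38% of the summed FPKM of the 3 member inhibitors. That sum leaves out Cdkn2a, Cdkn2b and Cdkn2d, which had means of 85.1, 43.1 and 48.9 FPKM in the same cells. The 2 tables were normalised separately, so levels between them are set side by side and were not tested.

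The fourth comparison was of CTL without IL-2 for 24 h with CTL kept in IL-2. Both D cyclins, both E cyclins, Cdk6 and Cdkn1a fell, and Cdkn1b rose. Cdk2, Cdk4 and Cdkn2c passed the adjusted p but not the fold limit. In limma, 1 of the 10 members was called higher and 6 lower, where 14.3% of all 11211 genes were higher and 13.9% were lower. The median log2 fold change was -1.31 over the members and 0.00 over all genes. At an unadjusted limma p under 0.05, 2 members were higher and 8 lower, against 36.3% of all genes higher and 37.7% lower.

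Cdkn1b was the member that rose. It had 10.0, 11.5 and 9.55 FPKM with IL-2 and 55.9, 55.4 and 69.0 FPKM without it. The log2 fold change was 2.52 (SE 0.11, limma adjusted p = 2.8e-07). All 3 libraries without IL-2 lay above the naïve range of 44.0 to 53.2 FPKM in the other table, which was normalised separately. Cdkn1a, the other Cip/Kip inhibitor, went the opposite way, from 158, 169 and 132 FPKM to 65.5, 65.4 and 35.9 FPKM. Its log2 fold change was -1.51 (SE 0.21, limma adjusted p = 1.6e-04). Cdkn2c had 21.7, 19.6 and 20.1 FPKM with IL-2 and 26.4, 24.4 and 26.1 FPKM without it, a log2 difference of 0.32 (SE 0.08, limma adjusted p = 0.0060), short of 2-fold.

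Both D cyclins fell. Ccnd3 had 275, 313 and 276 FPKM with IL-2 and 114, 117 and 80.8 FPKM without it, a log2 fold change of -1.49 (SE 0.14, limma adjusted p = 1.0e-05). Ccnd2 had 185, 177 and 162 FPKM with IL-2 and 84.9, 87.5 and 66.3 FPKM without it, a log2 fold change of -1.14 (SE 0.11). The lowest library without IL-2 was replicate 3 for both cyclins. Of the E cyclins, Ccne1 went from 41.2, 46.6 and 51.6 FPKM to 16.9, 15.5 and 11.6 FPKM, a log2 fold change of -1.67 (SE 0.14). Ccne2 went from 12.8, 12.6 and 15.7 FPKM to 5.83, 4.57 and 4.09 FPKM, a log2 fold change of -1.49 (SE 0.15). Their limma adjusted p were 6.7e-06 and 1.8e-05, and each library without IL-2 was below each library with it.

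The kinases differed in size of change. Cdk6 had 52.0, 46.4 and 52.3 FPKM with IL-2 and 10.0, 10.8 and 8.50 FPKM without it, a log2 fold change of -2.35 (SE 0.11, limma adjusted p = 2.9e-07). This was the largest fold among the members that fell. Cdk4 had 206, 242 and 230 FPKM with IL-2 and 121, 116 and 110 FPKM without it, and its log2 fold change of -0.96 (SE 0.08) was just short of the limit. Without replicate 1 of the CTL in IL-2, it was -1.03 and passed. Cdk2 had 27.5, 31.1 and 28.3 FPKM with IL-2 and 23.8, 20.5 and 16.7 FPKM without it, a log2 difference of -0.52 (SE 0.13, limma adjusted p = 0.0043).

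Ratios within a library do not depend on how libraries were scaled, and they are given as descriptions with no test. The Cdk6 share of the summed Cdk4 and Cdk6 FPKM was 3.54 ± 1.18% in naïve cells, 4.90 ± 0.484% in TCR cells and 5.21 ± 0.674% with PI3Kdi. It was 18.3 ± 2.05% in CTL with IL-2 and 7.78 ± 0.685% without it. In naïve cells, Ccne1 made up 98.7 ± 0.255% of the E cyclins, and in each other group its share was between 72.0% and 79.0% in every library. Cdk2 mRNA was 0.231 ± 0.0331 times that of Cdkn1b in naïve cells, 6.20 ± 1.15 times in TCR cells and 7.78 ± 1.68 times with PI3Kdi. This ratio was 2.80 ± 0.142 in CTL with IL-2 and 0.346 ± 0.0943 without it, so that p27 mRNA exceeded Cdk2 mRNA in every naïve library and in every library of CTL without IL-2.

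The summed D cyclins had 181 ± 19.4 FPKM in naïve cells, 332 ± 48.7 in TCR cells, 278 ± 21.7 with PI3Kdi, 462 ± 25.7 in CTL with IL-2 and 184 ± 31.7 without it. The summed E cyclins had 9.36 ± 0.718, 89.4 ± 8.03, 88.3 ± 4.49, 60.1 ± 6.70 and 19.5 ± 3.59 FPKM in the same order. The sum of the 3 member inhibitors was 53.1 ± 5.90 FPKM in naïve cells. It was lowest in activated cells, at 20.9 ± 5.76 FPKM in TCR cells and 12.9 ± 2.47 FPKM with PI3Kdi. It reached 184 ± 19.7 FPKM in CTL with IL-2 and 141 ± 9.0 FPKM without it. Cdkn2a and Cdkn2b, described below for CTL, are left out, as is Cdkn2d, a CDK inhibitor gene named after its values were seen. Cdkn2d had 56.4 ± 5.68 FPKM in naïve cells, 28.1 ± 8.12 in TCR cells and 27.1 ± 4.55 with PI3Kdi. In CTL it had 48.9 ± 1.61 FPKM with IL-2 and 62.7 ± 2.97 without it. The composition of the sum of the 3 members differed between groups: Cdkn1b made up 93.1 ± 1.98% of it in naïve cells and 5.65 ± 0.325% in CTL with IL-2. In CTL without IL-2 the share of Cdkn1b was 42.9 ± 8.49% and that of Cdkn1a was 38.9 ± 9.99%.

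**Figure D3:**
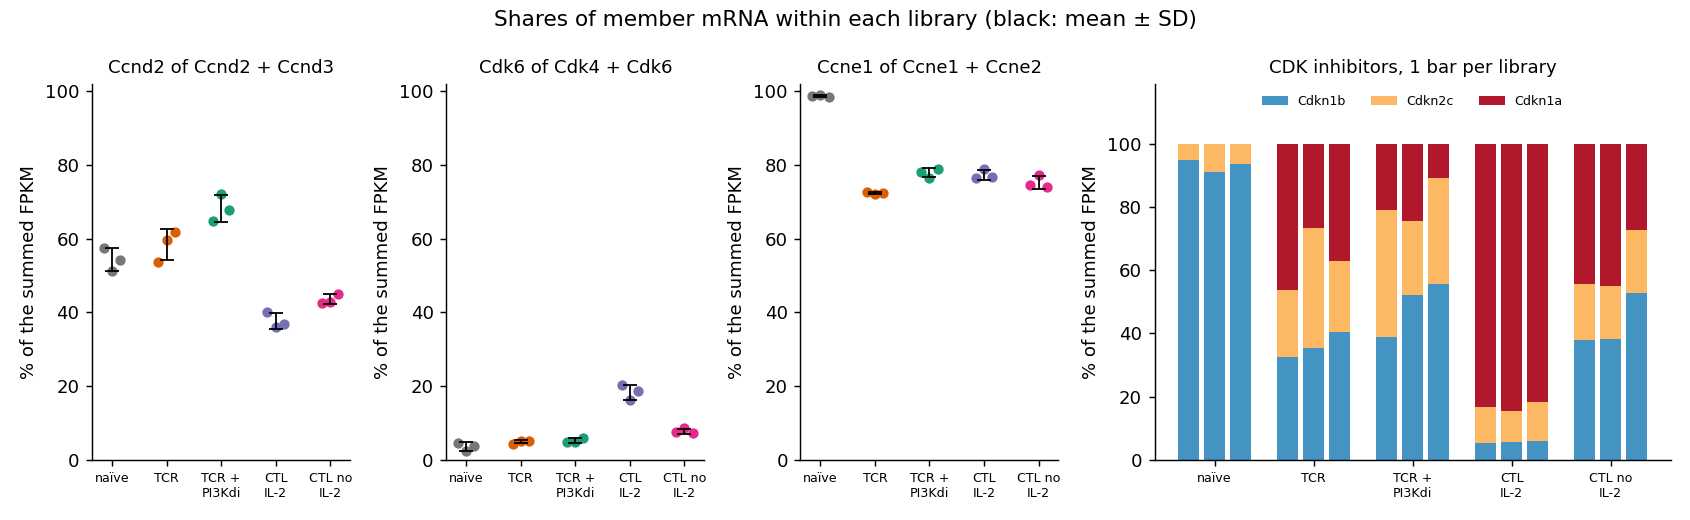
Shares of summed member FPKM within each library (vertical axes, percent): Ccnd2 of the D cyclins, Cdk6 of Cdk4 and Cdk6, Ccne1 of the E cyclins (points, with mean and SD in black), and the make-up of the 3 member CDK inhibitors with 1 bar per library. Naïve bars are almost all Cdkn1b, bars of CTL with IL-2 are 81.7% to 84.4% Cdkn1a, and the other groups hold a mixture.

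Genes around the switch were counted from lists of known regulators and targets, by the same limma call. Of all genes, the calls higher and lower were 25.0% and 23.7% in TCR against naïve and 3.04% and 2.10% in PI3Kdi against TCR. They were 23.6% and 21.3% in PI3Kdi against naïve and 14.3% and 13.9% in CTL without against with IL-2. For counts of lists at an unadjusted p under 0.05, the shares of all genes were 41.5% higher and 40.4% lower in TCR against naïve, 16.1% and 15.4% in PI3Kdi against TCR, and 36.3% and 37.7% in CTL without against with IL-2. A list of other G1/S regulators, which also holds genes of S phase and mitosis, had 9 genes in the first table. In TCR against naïve, 5 of them were higher and 1 was lower, with a median log2 fold change of 2.70. The 1 that was lower was the CDK inhibitor gene Cdkn2d, with a log2 fold change of -1.04 (SE 0.19, limma adjusted p = 3.4e-04). Ccna2, the cyclin of S phase, had 0.130 ± 0.0624 FPKM in naïve and 110 ± 13.7 FPKM in TCR cells. Cdk1, the mitotic kinase, had 0.200 ± 0.101 and 63.3 ± 5.42 FPKM, and Wee1, a kinase that restrains CDKs, had 0.637 ± 0.211 and 10.0 ± 1.02 FPKM. With PI3Kdi against TCR, 0 of these 9 genes were called by limma and the median was -0.10; at an unadjusted p under 0.05, 1 was higher and 2 were lower.

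In the CTL table, 3 of 11 genes on the list of other G1/S regulators fell without IL-2 and 0 rose. At an unadjusted p under 0.05, 1 was higher. Cdkn2b (p15) had 43.1 ± 9.72 FPKM with IL-2 and 3.86 ± 1.22 FPKM without it, a log2 fold change of -3.47 (SE 0.24). Cdkn2a, which encodes p16 and ARF, had 85.1 ± 21.7 and 12.2 ± 3.33 FPKM. Cdc25a, the phosphatase that activates CDK2, fell from 25.1 ± 1.14 to 7.46 ± 0.425 FPKM. Cdkn2a and Cdkn2b were not listed in the first table, while Cdkn2c was listed in both.

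Of the 13 pocket proteins and E2F and DP factors, 7 were higher and 1 was lower in TCR against naïve. E2f1, an activator of S phase genes, had 0.937 ± 0.0603 FPKM in naïve and 36.9 ± 2.82 FPKM in TCR cells. E2f8 and E2f7, which repress E2F targets, had 0.0267 ± 0.0115 and 0.00667 ± 0.00577 FPKM in naïve cells and 24.8 ± 2.00 and 1.84 ± 0.270 FPKM in TCR cells. Both naïve levels are below the 0.1 FPKM added before the logarithm, so the sizes of their fold changes follow that value. The 1 that fell was Rbl2, the pocket protein p130 of resting cells, with 37.1 ± 0.721 FPKM in naïve and 6.23 ± 0.756 FPKM in TCR cells; it was named after its values were seen. With PI3Kdi against TCR, 0 of the 13 were called by limma, and 5 were higher and 4 lower at an unadjusted p under 0.05. Without IL-2, 6 fell and 2 rose: E2f1 went from 21.8 ± 2.65 to 8.44 ± 1.29 FPKM, E2f4 from 185 ± 46.4 to 63.8 ± 3.38 FPKM, and Tfdp2 rose from 1.83 ± 0.387 to 7.82 ± 0.534 FPKM. Rbl2 was the other that rose, from 33.4 ± 4.93 to 76.7 ± 6.91 FPKM.

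The next 13 genes were listed around the ubiquitin ligases that act on p27, p21 and cyclins D and E, and not every one is a ligase part. In TCR against naïve, 5 of them were higher and 0 lower, beside 25.0% and 23.7% of all genes. At an unadjusted p under 0.05, 9 were higher and 1 was lower. Cks1b, the cofactor that SKP2 needs to bind p27, rose from 3.75 ± 0.603 to 120 ± 9.52 FPKM. Cks2 rose from 3.47 ± 0.264 to 130 ± 9.31 FPKM, and Dtl, a substrate receptor that acts on p21, from 0.0767 ± 0.0666 to 36.9 ± 6.34 FPKM. Without IL-2, 2 of the 13 fell and 0 rose, with 1 higher at an unadjusted p under 0.05. The 2 that fell are near the share of all genes called lower, 13.9%. Those that fell were Skp2, from 2.93 ± 0.348 to 1.09 ± 0.182 FPKM, and Cks1b, from 136 ± 12.8 to 66.8 ± 10.4 FPKM. With PI3Kdi against TCR, limma called 0 of the 13, and at an unadjusted p under 0.05 there were 1 higher and 3 lower.

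Among cyclins and CDKs outside the G1/S switch, 4 of 23 were higher and 5 lower in TCR against naïve, beside 25.0% and 23.7% of all genes, and the median was 0.01, as for all genes. The 3 with the largest changes were the mitotic cyclins Ccnb1 and Ccnb2 and the related Ccnf, with naïve levels of 0.303, 0.217 and 0.480 FPKM and TCR levels of 51.7, 13.4 and 27.6 FPKM. With PI3Kdi against TCR, 1 was higher, the Mediator kinase Cdk19, at 4.78 ± 0.641 against 2.33 ± 0.171 FPKM, and 0 were lower. At an unadjusted p under 0.05, 1 was higher and 5 were lower. Among these, Ccnb1, named here after its values were seen, had 26.2 ± 4.93 FPKM with PI3Kdi and 51.7 ± 5.41 without it. Its log2 difference of -0.99 (SE 0.16, limma adjusted p = 0.0019) was just short of the fold limit, which Cdk19 passed at 1.00. Without IL-2, 3 of 24 were higher and 2 lower, and Ccng2, a cyclin linked to cell cycle arrest, rose from 7.66 ± 2.20 to 54.9 ± 2.66 FPKM. Cdk19 and Ccni were the others that rose, with log2 fold changes of 1.62 and 1.45.

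TCR + PI3Kdi against naïve shares its libraries with the comparisons above, and 23.6% of all genes were called higher and 21.3% lower. The list calls higher and lower were 6 and 1 of 9 other G1/S regulators and 7 and 1 of 13 pocket proteins and E2F and DP factors. They were 6 and 0 of 13 genes of the ubiquitin ligase list, and 4 and 3 of 23 other cyclins and CDKs. For the target lists described next they were 4 and 7 of 24 for p53, 0 and 13 of 16 for FOXO, and 9 and 0 of 13 for IL-2 and STAT5.

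**Figure D4:**
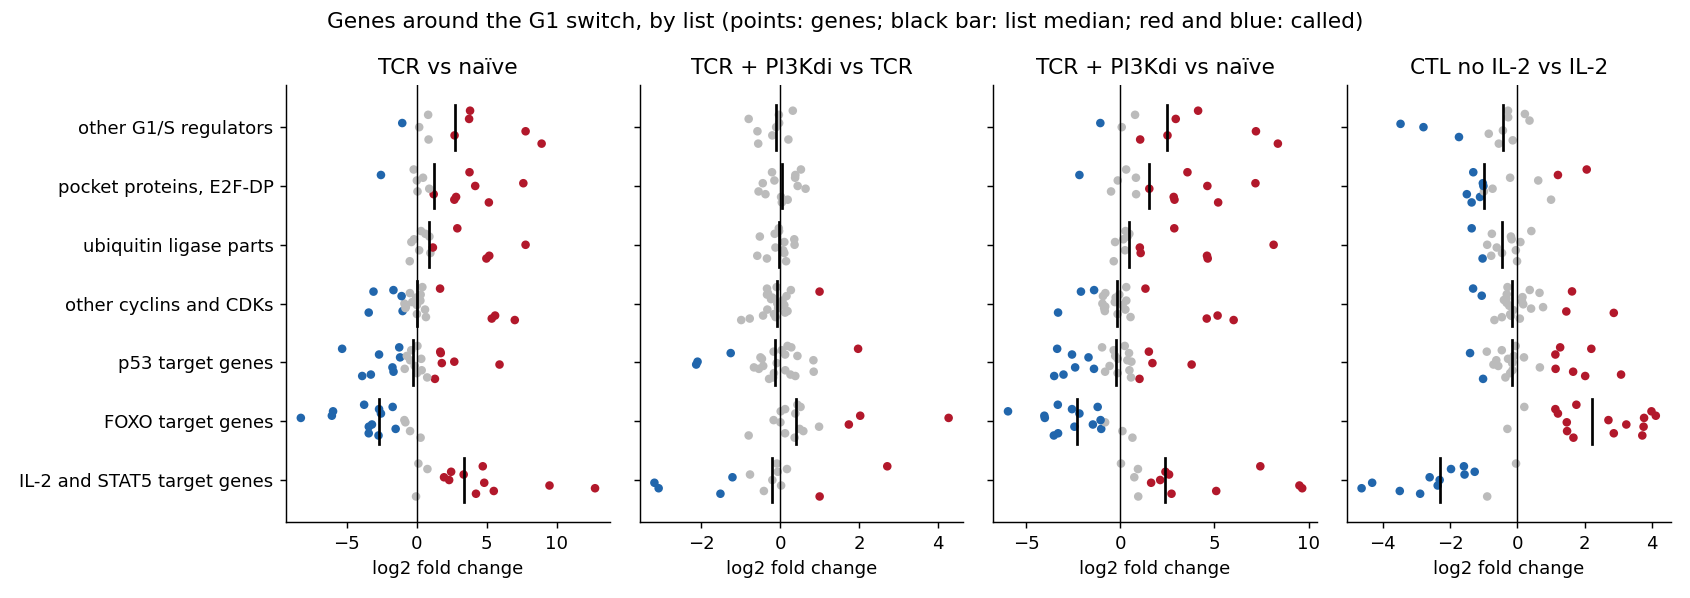
Fitted log2 fold changes (horizontal axes, which differ in range between panels) of the genes of 7 lists, 1 point per gene, in the 4 comparisons; black bars mark list medians, and red and blue points were called higher and lower. In the panel of PI3Kdi against TCR, no gene of the first 3 lists was called.

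Cdkn1b belongs to the genes that FOXO factors activate, and Cdkn1a to the targets of p53, so both sets were read beside them. Whether FOXO factors or p53 changed Cdkn1b or Cdkn1a in these cells was not tested. Of 16 other FOXO target genes, 0 were higher and 12 lower in TCR against naïve, with a median of -2.72 and with 1 higher at an unadjusted p under 0.05. Examples are Klf2 at -8.29, Pik3ip1 at -6.07 and S1pr1 at -5.99 on the log2 scale. With PI3Kdi against TCR, 3 of the 16 were higher and 0 lower, with a median of 0.41. At an unadjusted p under 0.05, 10 were higher and 1 was lower. Of the called genes, Klf2 rose from 0.743 ± 0.621 to 14.4 ± 5.09 FPKM, Pik3ip1 from 0.820 ± 0.0889 to 4.02 ± 2.17 FPKM, and Il7r, the interleukin 7 receptor, from 9.38 ± 3.24 to 30.8 ± 6.75 FPKM. Cdkn1b, with a log2 difference of -0.25, was not among the called genes in that comparison. Without IL-2, 14 of the 16 were higher and 0 lower, also at an unadjusted p under 0.05, with a median of 2.23 beside the 2.52 of Cdkn1b. Pik3ip1 rose from 5.70 ± 1.70 to 97.6 ± 17.3 FPKM, S1pr1 from 8.11 ± 3.44 to 122 ± 23.1 FPKM and Klf2 from 2.43 ± 0.112 to 35.4 ± 10.9 FPKM.

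The p53 list held 24 genes other than Cdkn1a in the tables, among them Trp53, the gene of p53 itself. They did not share 1 direction. In TCR against naïve, 6 were higher and 8 lower, beside 25.0% and 23.7% of all genes. Perp rose from 0.0267 ± 0.0231 to 8.05 ± 3.43 FPKM, while Trp53inp1 fell from 34.0 ± 5.93 to 0.750 ± 0.185 FPKM and Bbc3 from 13.7 ± 1.10 to 0.843 ± 0.265 FPKM. For PI3Kdi against TCR, 3 were lower, as was Cdkn1a, and 1 was higher, beside 2.10% and 3.04% of all genes. Perp, at 1.70 ± 0.595 FPKM with PI3Kdi, changed by -2.13 on the log2 scale, and Plk2 had a log2 fold change of -2.10, whereas Trp53inp1 rose by 1.98. Without IL-2, where Cdkn1a fell, 7 were higher and 2 lower, beside 14.3% and 13.9% of all genes. Btg2 rose from 9.41 ± 1.78 to 79.2 ± 1.56 FPKM, Trp53inp1 from 24.3 ± 9.40 to 106 ± 7.60 FPKM and Bbc3 from 7.71 ± 3.15 to 29.5 ± 4.58 FPKM. Trp53 itself, named after its values were seen, was called in none of the 4 comparisons by limma, and had log2 differences of -0.39, 0.04, -0.35 and -0.46 in the order of the comparisons above.

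Of 13 IL-2 and STAT5 target genes, 10 were higher and 0 lower in TCR against naïve, and 11 and 0 at an unadjusted p under 0.05. Cish, a feedback inhibitor of cytokine signalling, rose from 1.86 ± 0.275 to 88.6 ± 5.46 FPKM, and Il2ra, a chain of the IL-2 receptor, from 0.680 ± 0.171 to 557 ± 82.6 FPKM. Gzmb, which encodes granzyme B, had a log2 fold change of 12.75 from a naïve level of 0.407 ± 0.258 FPKM. The list was split for PI3Kdi against TCR, with 2 higher and 4 lower: Socs2 rose from 4.11 ± 1.25 to 28.2 ± 11 FPKM, Lta fell from 277 ± 37.3 to 31.7 ± 12.5 FPKM, and the log2 fold change of Gzmb was -3.08. Without IL-2, 11 of 13 fell and 0 rose, with a median of -2.31, and 12 were lower and 0 higher at an unadjusted p under 0.05. Cish fell from 220 ± 21.5 to 19.5 ± 2.81 FPKM, Lta from 195 ± 30.9 to 9.69 ± 1.30 FPKM, and Gzmb by 4.63 on the log2 scale.

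**Figure D5:**
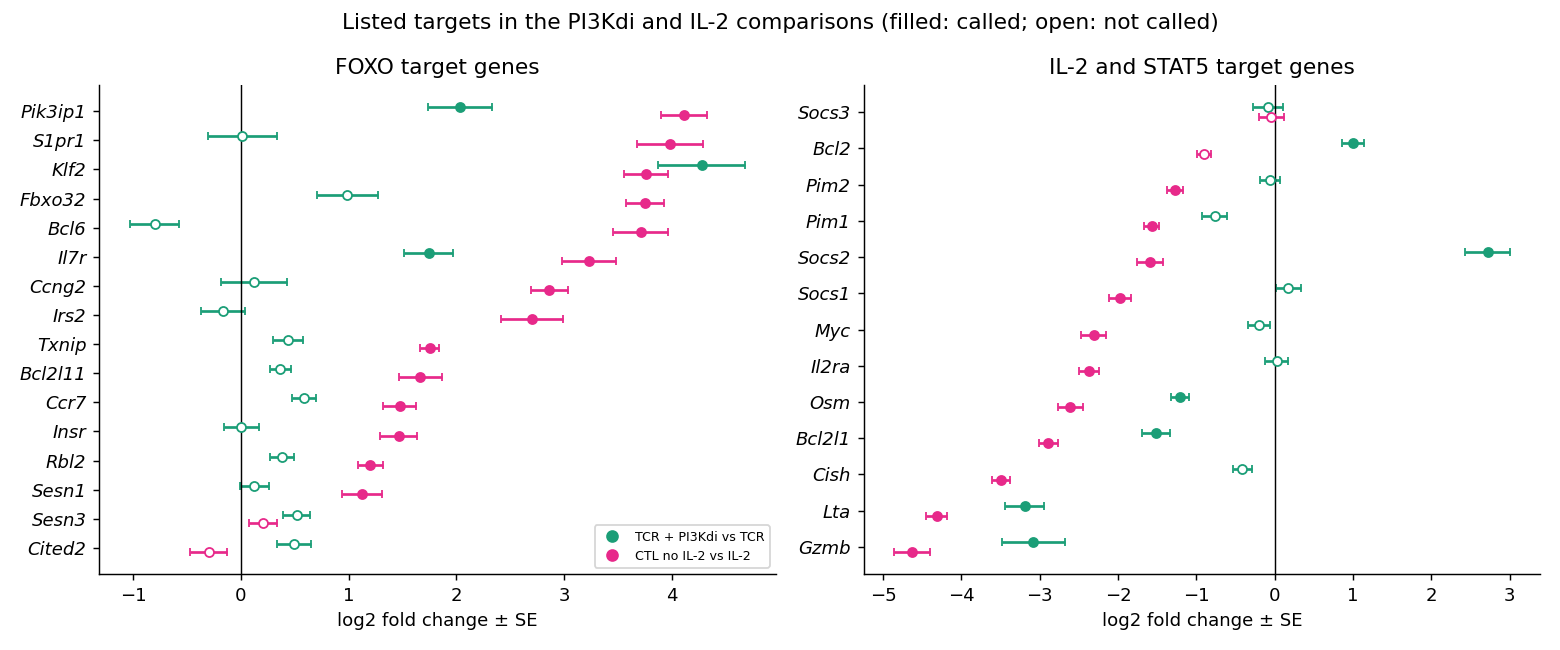
Log2 fold changes with SE (horizontal axes) of the FOXO targets and of the IL-2 and STAT5 targets, for PI3Kdi against TCR (green) and CTL without against with IL-2 (pink). Filled points were called and open points were not: 3 and 14 FOXO targets were higher, 4 and 11 IL-2 and STAT5 targets were lower, and 2 and 0 of the latter were higher, in the 2 comparisons.

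The pattern of each member over the 9 libraries of the first table was compared with 10072 genes of a mean FPKM of at least 1, by Pearson r of log2(FPKM + 0.1). The libraries fall into 3 groups, so r mainly follows the group means, and it is given as a description. Ccne1, Ccne2, Cdk2 and Cdk4 each had between 1990 and 2191 genes above an r of 0.95. Ccne1 was most like Trim37, Uhrf1 and Hpdl, Ccne2 like Ifrd2, Rrm2 and Mybl2, Cdk2 like Litaf, Pole and Topbp1, and Cdk4 like Prpf31, Eif5a and Smyd5. Cdk6 had 1313 such genes, led by Ddx11, and Cdkn1b had 1407, led by Serf2. Cdkn1a had 1387, led by Pex14, Nars and Asns at 0.995. Ccnd2 had 132, led by Btaf1 at 0.995. Ccnd3, high in TCR cells and near its naïve level with PI3Kdi, had 15, led by Ell2 at 0.974, Nfkb1 at 0.968 and Lad1 at 0.967. Cdkn2c had 0, its highest r being 0.813 with Mrp63.

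Gene models of 7 members overlap other annotated genes in GENCODE M21: Ccnd2 (9330179D12Rik, Gm43126), Ccnd3 (Bysl), Ccne2 (Ints8), Cdk2 (Pmel), Cdk4 (Tspan31), Cdk6 (Gm17590, Gm42435) and Cdkn1a (AC167363.2). These overlaps are of whole gene spans on either strand, while the authors counted reads on a RefSeq annotation. The library kit kept strand, but whether the counting used it is not stated. How reads in shared stretches were counted is therefore not known here. Ccne1, Cdkn1b and Cdkn2c overlap none.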

How the data were processed

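RNA sequencing libraries were made from 300 ng of total RNA with a stranded kit. The authors deposited FPKM, rounded to 2 decimals, in 2 tables: per their methods, reads were aligned with STAR 2.5.2b to mm10, counted with Subread 1.5.1, filtered, scaled with the TMM factors of edgeR, and expressed per exon length. These steps are stated for the first table and were assumed for the CTL table. Read totals per library are not given in the sources used here. The 1039 blank cells of the first table were read as 0. The limma-voom fit of the methods needs raw counts, which were not used here.

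Samples were grouped by the titles in the deposited labels. For every gene, log2(FPKM + 0.1) was modelled with limma 3.58.1 (R 4.3.3), letting the variance prior follow intensity, in 1 fit over the 9 libraries of the first table and 1 over the 6 CTL libraries, without a replicate block. The Benjamini-Hochberg adjustment ran over every gene of a table. A call needed an adjusted p under 0.05 and a fold above 2 or below 0.5. The fits and the depth estimate were tested on simulated data. Python 3.11.15, numpy 2.4.6, pandas 2.3.3 and matplotlib 3.10.9 were used.

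The members, gene lists and tests were chosen with earlier results of these data known. All 10 members are named, and from each list at most the 3 called genes with the largest log2 fold change per comparison, with exceptions marked. Rbl2, Ccng1, Ccng2 and Sesn1 stand in 2 lists each. 1 gene of the FOXO list is not reported here. Likeness names up to 3 genes per member.

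Each pool was divided between the 3 groups of the first table, but no source links numbers to pools. Deviations of same-numbered libraries from their group means correlated across 10072 genes by 0.27, 0.20 and 0.51 for PI3Kdi against TCR, and across 10263 genes by 0.12, 0.17 and 0.26 in CTL, so the numbers were taken to pair these samples. Between TCR and naïve cells the values were -0.14, 0.23 and -0.18, and between TCR + PI3Kdi and naïve cells -0.01, -0.02 and 0.03. Alternatives were a pseudocount of 1 or 0.01, a mean FPKM minimum of 1, scaling to a common median, the replicate block, no trend, only the groups compared, a fold limit of 1.5 or none, and leaving out each replicate.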

Additional observations from a re-analysis of the deposited data

How the results depend on the processing

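Of the counts of members called, 57 alternatives stayed within 1.5 times the reported count and 2 moved past it: for PI3Kdi against TCR, a fold limit of 1.5 and no fold limit each gave 2 members lower, Cdkn1a and Ccnd3. With the replicate block the counts of members called were 7 for TCR against naïve, 1 for PI3Kdi against TCR, 7 for PI3Kdi against naïve and 7 in CTL, and no call of a member changed. The block gave Ccnd3 an adjusted p of 0.0017 and Cdkn1a one of 0.0059 in limma for PI3Kdi against TCR.

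Of the fold changes of single members, 495 values kept their direction and their call, 0 lost a call, 7 passed the fold limit and 8 changed sign. The adjusted p alone crossed 0.05 in 1 of 510 values, for Ccne2 in PI3Kdi against TCR with a pseudocount of 1 (limma adjusted p = 0.049). Those that passed were Ccnd2 against naïve cells and Cdk4 in CTL, as given with those genes. Without naïve replicate 1 or PI3Kdi replicate 1, Ccnd2 in PI3Kdi against naïve also passed, at 1.06 and 1.04. The changes of sign all concern uncalled differences near 0 and arose on leaving out 1 replicate: Ccnd2 ranged from -0.21 to 0.11, Cdk4 from -0.047 to 0.0027 and Cdk6 from -0.052 to 0.14 for PI3Kdi against TCR, and Cdkn2c from -0.094 to 0.56 for PI3Kdi against naïve. The cause was not tested. The intervals of Cdkn1a and Cdkn2c in the first table are wide, and FPKM near 0, as for Ccne2 and Cdkn1a in naïve cells, give fold changes that follow the pseudocount.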
